A study of Mus musculus with 5 samples.

Results

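The genes described here are 38 genes that mark the epithelium of the colon, read in CD4+ T cells sorted from mice. They were chosen from a list of known epithelial genes, with earlier results of these data known. Shares of the 38 set beside those of all genes are therefore descriptions, not independent tests. Each gene was read from the brightest, by mean over the 5 arrays, of the probe sets that carry only its symbol. All 38 were measured, out of 18193 genes on the arrays. They fall into 12 genes of epithelial adhesion and keratins, 11 of absorptive cells, 7 of goblet cells, 4 of antimicrobial and mucosal defence, and 4 epithelial transcription factors.

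The colon is lined by a single sheet of epithelial cells, held together by cadherins and claudins and supported by keratins 8, 18, 19 and 20. Absorptive cells exchange salt, water and bicarbonate with the gut contents, goblet cells secrete the mucus layer, and in inflammation the sheet makes antimicrobial lectins of the REG3 family. T cells of the lamina propria (LP), the connective tissue directly under this sheet, are not known to make most of these proteins, although CEACAM1 is also found on activated T cells.

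Rag1-/- mice, which have no T or B cells of their own, received CD45RBhigh CD4+ T cells of BALB/c mice and developed colitis. CD3+CD4+ T cells were then sorted from the colonic LP into CXCR6+ (n = 2 arrays) and CXCR6- (n = 2 arrays) cells, where CXCR6 is the receptor of the chemokine CXCL16. CD45RBhigh CD4+ naive T cells of BALB/c mice (n = 1 array) were the reference, taken from the spleen according to the methods, although 1 of the labels of that array names the LP of healthy mice. The LP cells were released by removing the epithelium with dithiothreitol and EDTA and digesting the remaining tissue, whereas the spleen was disrupted mechanically. The labels call the arrays biological replicates, do not say what the replicate numbers mark, and do not give the number of mice. P-values therefore measure only the spread between these arrays, and the number of arrays limits their precision.

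Signals are linear values scaled by the authors so that the median probe set of every array is 1. T cell markers were bright on every array. All 11 measured T cell genes had signals above 1 on all 5 arrays, and their summed signal was 716 to 998 in LP cells and 707 in naive T cells. The LP and naive arrays also differed beyond the cells sorted. The ratio of 3′ to 5′ Gapdh signal, which grows as RNA is shortened, was 2.81 to 6.96 in LP cells and 1.51 in naive T cells. The added Dap control RNA read 95.5 to 139 and 0.191. Xist, an RNA of the silenced X chromosome of females, read 181 to 215 in LP cells and 0.864 in naive T cells, so that sex, tissue, transfer and sample preparation cannot be told apart in any comparison with naive T cells.

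**Figure D1:**
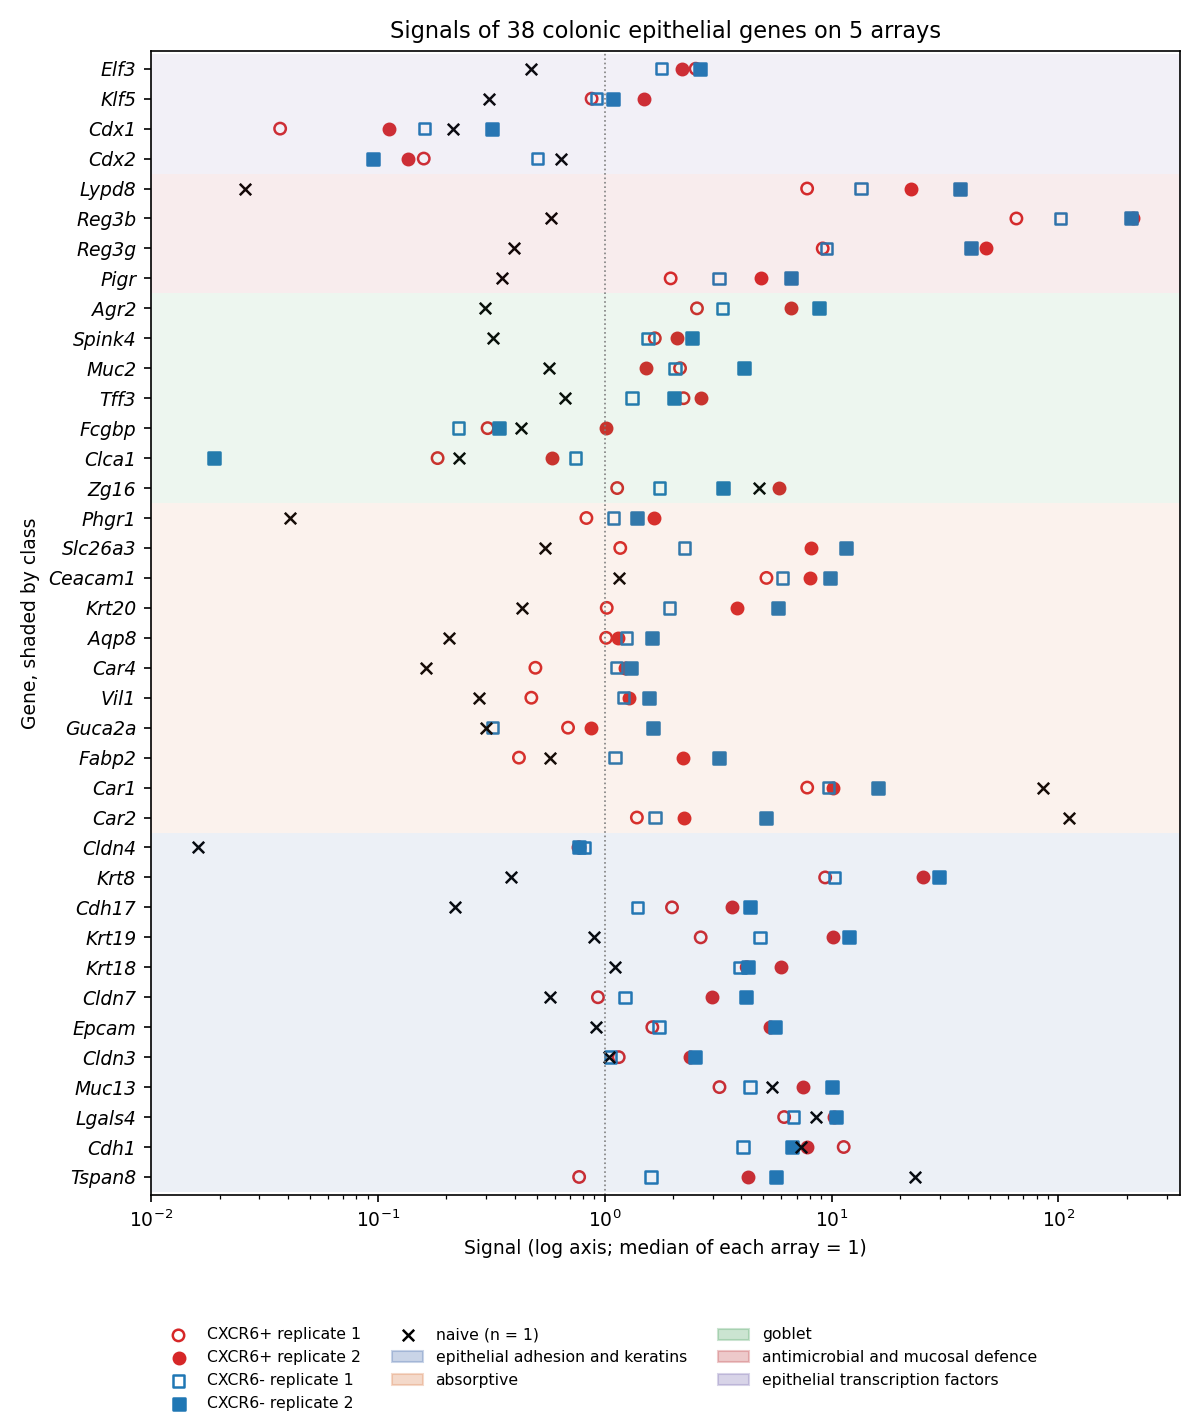
Signal of each of the 38 genes on each of the 5 arrays (x axis, log scale, median of each array at 1, dotted line), shaded by class. Open symbols are replicate 1, filled symbols replicate 2 and crosses the naive array; the antimicrobial genes lie far to the right of their crosses, and Car1, Car2 and Tspan8 to the left.

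LP CD4+ T cells carried clear signals of colonic epithelial genes. Of the 38 genes, 17 rose in LP cells against naive T cells, 2 fell and 19 did not pass the test (limma, adjusted p under 0.05). Of all genes, 15.1% rose and 18.8% fell. The median log2 difference of the 38 genes was 1.95, against -0.14 over all genes. For 26 of the 38, all 4 LP arrays lay above the naive array, against 35% of all genes. The number of the 38 genes with a signal above 1 was 25 and 33 in CXCR6+ cells, 31 and 33 in CXCR6- cells and 10 in naive T cells. Of all 18193 genes, 10483 and 10624 were above 1 in CXCR6+ cells, 10574 and 10773 in CXCR6- cells and 10526 in naive T cells. The count of 25 in CXCR6+ replicate 1 was thus near the share of all genes. In these bulk samples, fewer cells of a type and less RNA per cell cannot be told apart. The test takes the spread of the single naive array to equal that of the LP arrays. Leaving out an LP array leaves 1 array in its subset, and fewer of all genes then passed, not only fewer of the 38. The count of genes that rose was 5 without CXCR6+ replicate 1, 4 without CXCR6+ replicate 2, and 0 without either CXCR6- array, when none of all genes passed either, although 7530 and 7545 of all genes had an unadjusted p under 0.05. With quantile normalization 10 of the 38 rose, and Cdh17, Car4, Tff3, Agr2, Reg3g, Pigr and Klf5 no longer passed. With every signal under 1 set to 1, 1 of the 38 genes rose and 0 fell, against 1068 and 3321 of all 18193 genes. At that setting the 38 thus rose no more often than genes in general.

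All 4 antimicrobial and mucosal defence genes rose in LP cells. LP signals are given here and further on in the order CXCR6+ replicate 1, CXCR6+ replicate 2, CXCR6- replicate 1 and CXCR6- replicate 2. Reg3b, a secreted C-type lectin of the gut, had signals of 65.2, 213, 102 and 209 in LP cells and 0.577 in naive T cells. Its log2 difference was 7.83 ± 0.86 (SE, n = 4 LP arrays and 1 naive array, limma adjusted p = 0.015). A second Reg3b probe set had signals of 14.7, 72.3, 19.0 and 81.9 against 0.201. Every LP array was thus far above the naive array with either probe set. Reg3g, a lectin that binds Gram-positive bacteria, had signals of 9.13, 47.9, 9.52 and 41.0 against 0.398 (log2 difference 5.67 ± 1.33, limma adjusted p = 0.0476). Lypd8, a GPI-anchored protein of the colonic surface that holds flagellated bacteria away, had signals of 7.79, 22.4, 13.5 and 36.9 against 0.026 (9.37 ± 0.90, adjusted p = 0.0134). The naive signal of Lypd8 lay so far under the array median that the size of this difference depends on the treatment of dim signals, and it was 4.10 with signals under 1 set to 1. Pigr, the receptor that carries IgA across the epithelium, had signals of 1.95, 4.89, 3.18 and 6.65 against 0.353 (3.42 ± 0.74, adjusted p = 0.0405). Reg3g and Pigr did not pass with quantile normalization (limma adjusted p = 0.0602 and 0.0575) or with the probe sets of each gene averaged (0.053 and 0.079). With signals under 1 set to 1, at most 1 of these 4 genes passed. On all 4 genes both replicate 2 arrays exceeded both replicate 1 arrays.

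Upstream sequences are shown for 4 of the 38 genes with the letters TATAAA, the core of a TATA box, near the annotated start. In these the letters start within 35 bases before it. The 4 genes include both lectins and the 2 absorptive genes Krt20 and Slc26a3 that return under the replicate comparison. Genes of a single chromosome were left out of this choice, so others of the 38 may hold the letters there. The 4 genes were chosen after the signals were known. RefSeq (GRCm38.p6) gave promoters for 27 of the 38 genes, and 918 of all 32851 promoters (2.79%) hold these letters, on either strand, in that window. No chromosome was left out of that share. The letters start 29 bases before the start of Reg3b and Krt20, 27 before that of Reg3g and 30 before that of Slc26a3, and stand in capitals. Each line holds the 120 bases before the start, 5′ to 3′ along the gene.
Reg3b (chr6:78370765-78370884, + strand): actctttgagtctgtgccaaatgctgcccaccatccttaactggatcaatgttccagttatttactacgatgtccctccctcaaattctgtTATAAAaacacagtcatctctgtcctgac
Reg3g (chr6:78468875-78468994, - strand): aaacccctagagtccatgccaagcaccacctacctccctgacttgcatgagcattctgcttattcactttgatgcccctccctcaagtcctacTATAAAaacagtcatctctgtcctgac
Krt20 (chr11:99438154-99438273, - strand): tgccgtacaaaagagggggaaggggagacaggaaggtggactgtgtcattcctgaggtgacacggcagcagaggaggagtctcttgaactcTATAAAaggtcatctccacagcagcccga
Slc26a3 (chr12:31438099-31438218, + strand): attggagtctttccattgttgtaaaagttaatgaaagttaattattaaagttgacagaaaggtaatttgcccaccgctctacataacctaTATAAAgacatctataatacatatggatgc
Over the 250 bases upstream, Reg3b and Reg3g shared 173 bases (68.4% of 253 aligned columns). Across that longer window, TATAAA was found on either strand in 5 of the 27 genes and in 12.4% of all promoters. The letters TTTATG, a core site of the intestinal CDX factors, were found on either strand in 4 of the 27 and in 10.8%. The letters are a description of these windows, and no use of a site was measured.

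Among adhesion genes and keratins, 4 of 12 rose, 0 fell and 8 did not pass. Krt8, a keratin of simple epithelia, had signals of 9.36, 25.4, 10.3 and 29.6 in LP cells and 0.387 in naive T cells (log2 difference 5.41 ± 0.90, limma adjusted p = 0.0251). The other 2 Krt8 probe sets had LP signals of 6.78 to 29.1 and naive signals of 0.236 and 0.094. Its partner keratin Krt18 had 4.22, 5.96, 3.94 and 4.29 against 1.11 (2.03 ± 0.32, adjusted p = 0.0228). Both keratins were higher on every LP array than on the naive array. Cdh17, the liver-intestine cadherin, had 1.98, 3.65, 1.40 and 4.36 against 0.219 (3.55 ± 0.80, adjusted p = 0.0442). Cldn4, a tight junction claudin, had 0.765, 0.767, 0.808 and 0.771 against 0.016 (5.60 ± 0.24, adjusted p = 0.0119). All its signals lay below the array median, and with signals under 1 set to 1 its difference was 0.

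The other 8 genes of this class, among them the epithelial surface markers Epcam and Cdh1, did not pass. Epcam, the epithelial cell adhesion molecule, had signals of 1.62, 5.34, 1.74 and 5.60 against 0.916 (log2 difference 1.72 ± 1.02, limma adjusted p = 0.262). Its second probe set had 2.22, 3.52, 3.06 and 1.56 against 0.473. Every LP array was above the naive array with both probe sets, but the order of the LP arrays differed between them. Cdh1, E-cadherin, had 11.3, 7.77, 4.06 and 6.70 against 7.35 (-0.07 ± 0.44, adjusted p = 0.911). The naive signal of Cdh1 lay within the LP range, the CXCR6+ arrays above it and the CXCR6- arrays below it. Krt19 had 2.65, 10.1, 4.82 and 11.9 against 0.894, and did not pass (2.81 ± 0.99, adjusted p = 0.106). The tight junction gene Cldn7 had 0.932, 2.96, 1.23 and 4.20 against 0.573 (adjusted p = 0.258). Cldn3, of the same family, had 1.15, 2.37, 1.06 and 2.51 against 1.04 (adjusted p = 0.512). On both claudins all 4 LP arrays lay above the naive array, for Cldn3 the replicate 1 arrays only slightly so. Muc13, a membrane mucin, had 3.20, 7.44, 4.37 and 10.1 against 5.48, the naive array lying between the replicates (0.05 ± 0.74, adjusted p = 0.962). Tspan8, a tetraspanin, had 0.770, 4.25, 1.60 and 5.69 against 23.3 in naive T cells (-3.31 ± 1.29, adjusted p = 0.128). All 5 Tspan8 probe sets were higher on the naive array than on every LP array. Lgals4, a galectin of the gut, had LP signals of 6.17 to 10.5 against 8.56 and its groups overlapped.

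Among absorptive genes, 4 of 11 rose, 2 fell and 5 did not pass. Ceacam1, an adhesion molecule, had signals of 5.16, 8.05, 6.07 and 9.82 in LP cells and 1.15 in naive T cells (log2 difference 2.62 ± 0.46, limma adjusted p = 0.0269). Aqp8, a water channel of surface colonocytes, had 1.01, 1.14, 1.25 and 1.62 against 0.206 (2.58 ± 0.29, adjusted p = 0.0152). Car4, a membrane carbonic anhydrase, had 0.494, 1.23, 1.12 and 1.31 against 0.162 (2.58 ± 0.60, adjusted p = 0.046). Phgr1, a small protein of intestinal epithelium, had 0.829, 1.65, 1.09 and 1.39 against 0.041 (4.87 ± 0.49, adjusted p = 0.0141). The groups did not overlap for these 4 genes, but Aqp8, Car4 and Phgr1 were near the array median even in LP cells, and with signals under 1 set to 1 none of the 3 passed. Car4 also did not pass with the probe sets of each gene averaged (limma adjusted p = 0.0699).

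The carbonic anhydrases of the cytosol went the other way. Car1 had signals of 7.80, 10.1, 9.68 and 16.0 in LP cells and 85.2 in naive T cells (log2 difference -3.02 ± 0.41, limma adjusted p = 0.0188). Car2 had 1.38, 2.22, 1.67 and 5.12 against 111 (-5.62 ± 0.76, adjusted p = 0.0187). Both fell, and every LP array lay below the naive array. CAR1 and CAR2 are also abundant in red blood cells and their precursors. The 3 measured erythroid markers had summed signals of 0.667 to 2.04 in LP cells and 8.57 in naive T cells, most of the latter from Ank1. Ank1 had 0.4 to 1.6 in LP cells and 7.15 in naive T cells, and Alas2, an enzyme of heme synthesis, 0.044 to 0.239 and 1.40. Hba-a1, a globin gene, went the other way, at 0.138 to 0.505 and 0.016. The part of erythroid cells in the fall of Car1 and Car2 was not tested.

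Other absorptive genes did not pass. Slc26a3, the chloride-bicarbonate exchanger of the colonic surface, had signals of 1.17, 8.09, 2.25 and 11.6 against 0.542 (log2 difference 2.87 ± 1.53, limma adjusted p = 0.222). Krt20, the keratin of mature surface cells, had 1.02, 3.84, 1.93 and 5.83 against 0.429 (2.58 ± 1.05, adjusted p = 0.14). Both genes were above the naive array on all 4 LP arrays, with a wide spread between replicates. Vil1, villin of the microvilli, had 0.474, 1.28, 1.21 and 1.56 against 0.280 (adjusted p = 0.102). Fabp2, a fatty acid binding protein, had 0.418, 2.21, 1.11 and 3.20 against 0.570, so CXCR6+ replicate 1 lay below the naive array (adjusted p = 0.467). Guca2a, the precursor of guanylin, had LP signals of 0.320 to 1.62 against 0.300.

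Among goblet genes, 3 of 7 rose, 0 fell and 4 did not pass. Agr2, a disulfide isomerase needed to make mucin, had signals of 2.55, 6.64, 3.29 and 8.78 in LP cells and 0.296 in naive T cells (log2 difference 3.99 ± 0.85, limma adjusted p = 0.0393). Spink4, a secreted peptide of goblet cells, had 1.66, 2.08, 1.55 and 2.42 against 0.322 (2.56 ± 0.38, adjusted p = 0.0211). Tff3, the trefoil peptide of mucus, had 2.22, 2.67, 1.32 and 2.02 against 0.664 (1.59 ± 0.36, adjusted p = 0.045). These 3 genes were above the naive array on every LP array. The second Agr2 probe set had 0.557, 0.914, 1.024 and 2.195 against 0.324. With the probe sets of each gene averaged, Agr2 and Tff3 did not pass (limma adjusted p = 0.061 and 0.0531). Muc2, the main mucin of the colon, had 2.15, 1.52, 2.04 and 4.10 against 0.565 and did not pass (2.02 ± 0.52, adjusted p = 0.0567). Fcgbp, Zg16 and Clca1, other proteins of mucus, had naive signals inside their LP range. Zg16 had 1.13, 5.83, 1.75 and 3.31 against 4.78, and Clca1 was below the array median on every array, at 0.019 to 0.744.

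Among transcription factors, 2 of 4 rose, 0 fell and 2 did not pass. Elf3, an ETS factor of epithelia, had signals of 2.51, 2.18, 1.78 and 2.63 in LP cells and 0.472 in naive T cells (log2 difference 2.25 ± 0.34, limma adjusted p = 0.022). Klf5, a factor of proliferating crypt cells, had 0.874, 1.48, 0.916 and 1.08 against 0.309 (1.79 ± 0.40, adjusted p = 0.0444). With the mean of its 3 probe sets, Klf5 had a difference of 0.64 and did not pass (adjusted p = 0.263). Cdx2, the factor that sets intestinal identity, had 0.159, 0.136, 0.504 and 0.095 against 0.640 (adjusted p = 0.24). Cdx1, its relative, had LP signals of 0.037 to 0.317 against 0.215. Both CDX genes were below the array median on all 5 arrays.

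**Figure D2:**
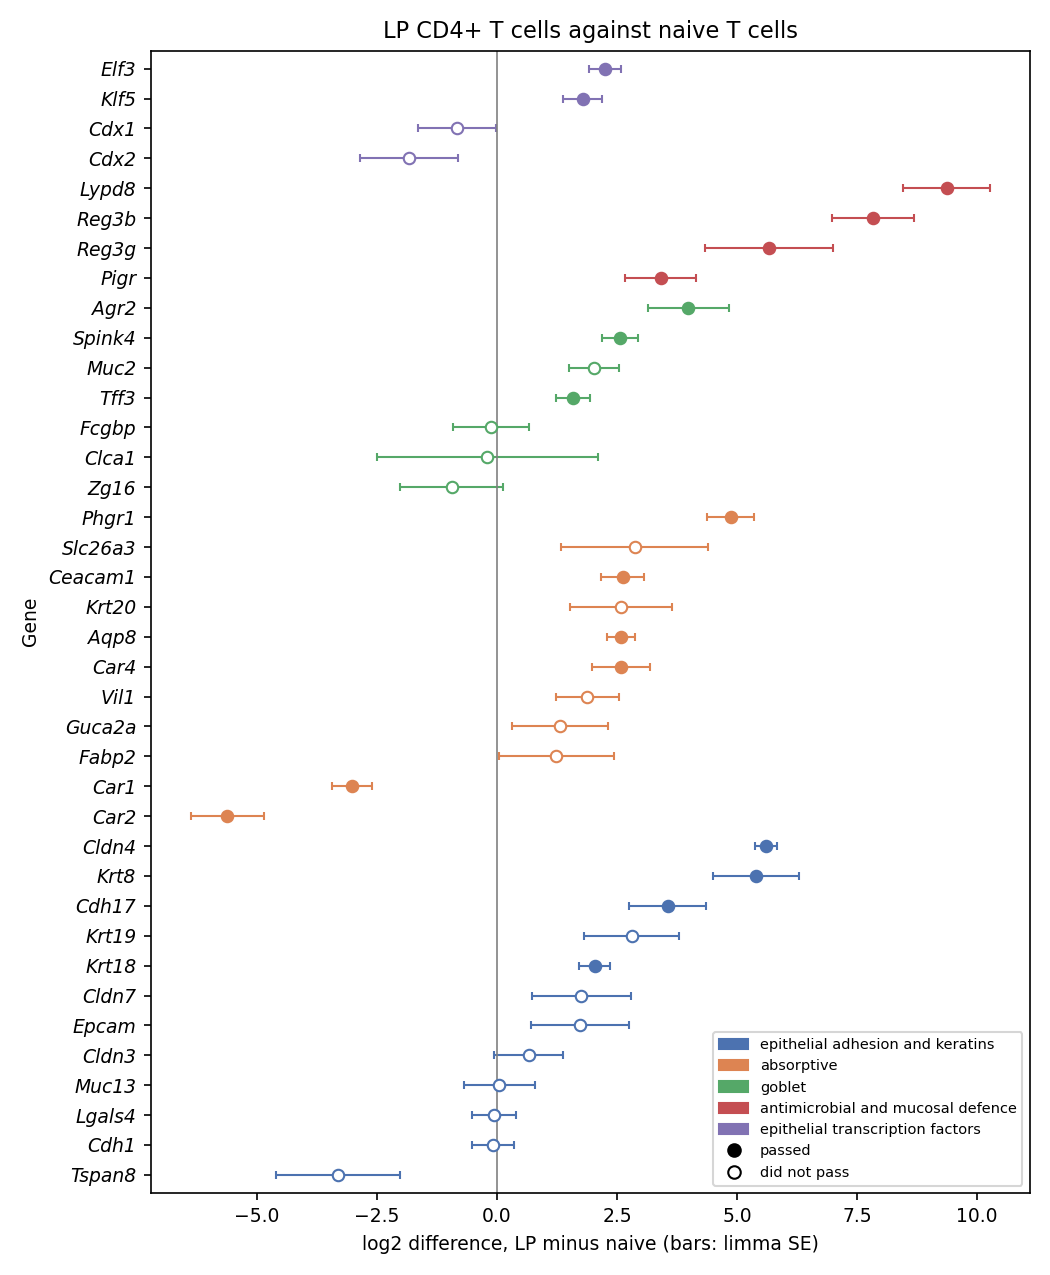
Log2 difference of each of the 38 genes between LP CD4+ T cells (n = 4 arrays) and naive T cells (n = 1 array), with limma's standard error, coloured by class. Filled points are the 19 genes that passed at an adjusted p under 0.05, of which 17 lie right of 0 and 2, Car1 and Car2, left of it.

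The epithelial genes were carried by both sorted subsets. Against naive T cells, 11 of the 38 rose in CXCR6+ cells and 13 in CXCR6- cells, against 13.2% and 12.8% of all genes, and Car1 and Car2 fell in both. These comparisons share the naive array. With the replicate number as a fixed term, or with any LP array left out, 0 of all genes passed in either comparison, although 6350 to 7949 of all genes had an unadjusted p under 0.05. Between CXCR6+ and CXCR6- cells 0 of the 38 passed with limma, as did 0% of all genes, and 0 of the 38 had an unadjusted p under 0.05, against 6.55% of all genes. The smallest adjusted p of the 38 was 0.761. The median log2 difference of CXCR6+ minus CXCR6- cells was -0.28, and it became 0.29 without CXCR6+ replicate 1, 0.19 without CXCR6- replicate 2, -0.79 without CXCR6+ replicate 2 and -0.84 without CXCR6- replicate 1. Its sign changed with the array left out.

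The larger split among the LP arrays lay between the replicate numbers. In both subsets most of the 38 genes were higher on the replicate 2 array. Replicate 2 exceeded replicate 1 in both subsets for 32 of the 38 genes, against 32.5% of all genes. Both replicate 2 arrays exceeded both replicate 1 arrays for 29 of the 38, against 21.3% of all genes. Both were lower for 1 of the 38, Cdx2, against 11.4%. The median log2 difference of replicate 2 minus replicate 1 was 1.16, a fold of 2.23, against 0.08 over all genes. Within CXCR6+ cells the median was 1.26 and within CXCR6- cells 1.00. For 15 of the 38 genes replicate 2 was at least 2-fold higher in both subsets, against 2.86% of all genes, and 0 were at least 2-fold lower in both.

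The summed signal of the 38 genes was 162 and 439 in CXCR6+ cells and 212 and 474 in CXCR6- cells, replicate 1 first. No gene passed after adjustment in this comparison, in which the 4 LP arrays left 1 residual degree of freedom (limma, 0% of all genes, with adjusted p of 0.705 to 0.999 for the 38). At an unadjusted p under 0.05, 17 of the 38 were higher in replicate 2 and 0 lower, against 3.92% of all genes higher. After adjustment 11 of the 29 genes kept passed with dim genes left out, against 114 of all 10916 genes tested. With limma's variance trend and robust fitting 17 of the 38 passed, against 292 of all 18193 genes.

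**Figure D3:**
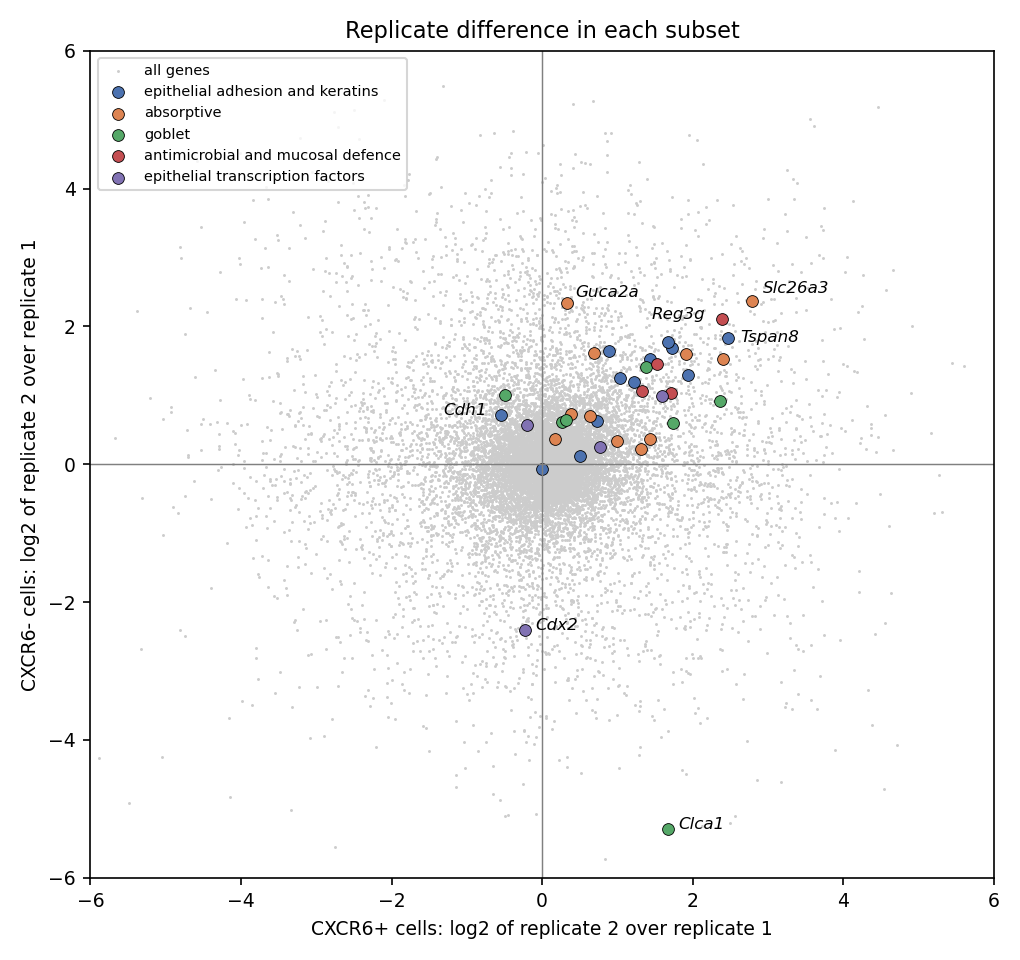
Log2 of replicate 2 over replicate 1 in CXCR6+ cells (x axis) and in CXCR6- cells (y axis) for the 38 genes, coloured by class, over all genes in grey (genes beyond the axis range are not drawn); each point rests on 1 array per axis and arm. Of the 38 genes, 32 have both values above 0, with Slc26a3 farthest out along both axes, and Clca1 and Cdx2 lie low.

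Slc26a3 was 6.92-fold higher in replicate 2 of CXCR6+ cells and 5.15-fold higher in that of CXCR6- cells (log2 2.58 ± 0.28, SE, limma adjusted p = 0.705). This difference depended on the probe set, and was 0.96 with all 4 of its probe sets averaged and 1.39 without the _s_at and _x_at probe sets. Reg3g, which has 1 probe set, was 5.25-fold and 4.31-fold higher, a log2 difference of 2.25. Tspan8 was 5.53-fold and 3.56-fold higher, a log2 difference of 2.15 that was 0.95 with its 5 probe sets averaged. Krt8, Epcam, Cldn7 and Krt20 were 2.71-fold, 3.30-fold, 3.18-fold and 3.77-fold higher in CXCR6+ replicate 2, and 2.88-fold, 3.23-fold, 3.42-fold and 3.02-fold higher in CXCR6- replicate 2. The second Epcam probe set was 1.59-fold higher in CXCR6+ replicate 2 but lower in CXCR6- replicate 2 (0.509-fold). The log2 difference of Epcam, 1.71, was 0.78 with its 2 probe sets averaged. With the probe sets used, genes of different epithelial functions, transport, defence, junctions and keratins, thus stood higher on the same arrays. The other genes at least 2-fold higher in both subsets were Krt19, Cldn3, Muc13, Fabp2, Agr2, Reg3b, Lypd8 and Pigr.

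The size of the replicate difference varied with the class. The 4 antimicrobial and mucosal defence genes were all at least 2-fold higher in replicate 2 in both subsets, with a median log2 difference of 1.43. Of the 12 adhesion genes and keratins 7 were, with a median of 1.24, and of the 11 absorptive genes 3, with a median of 0.90. Of the 7 goblet genes only Agr2 was, with a median of 0.48, and of the 4 transcription factors 0, with a median of 0.34. The order of the class medians depended on the subset. Within CXCR6+ cells the goblet median was 1.38, above those of adhesion genes and keratins at 1.13 and absorptive genes at 0.99, and within CXCR6- cells the 3 medians were 0.64, 1.27 and 0.73. No difference between classes was tested.

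Several epithelial genes had small replicate differences or differences of opposite sign in the 2 subsets. Cldn4 and Elf3, which rose against naive T cells, had replicate differences of -0.03 and 0.18 on the log2 scale. Tff3, which also rose, had 0.26 within CXCR6+ cells and 0.62 within CXCR6- cells. Krt18 differed by 0.31, far less than its partner Krt8 at 1.48 (differences within each gene, not levels). Muc2 was lower in replicate 2 of CXCR6+ cells (0.709-fold) and higher in that of CXCR6- cells (2.01-fold), and Cdh1 likewise (0.688-fold and 1.65-fold).

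Measures of the RNA also moved with the replicate number. The 3′ to 5′ ratio of Gapdh was 2.81 and 3.98 in CXCR6+ cells and 4.19 and 6.96 in CXCR6- cells, replicate 1 first. The Dap control had signals of 96.3 and 111, and 95.5 and 139. Replicate 2 was higher in each pair. The part of RNA quality in the replicate difference was not tested.

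Other marker lists put the epithelial genes in context. Of 22 measured genes in a further list of colonocyte and goblet genes, 10 rose in LP cells, 1 fell and 11 did not pass. Dmbt1, a scavenger protein of mucosal defence, had signals of 9.24, 24.7, 12.5 and 27.6 in LP cells and 0.125 in naive T cells. Retnlb, a goblet cell protein induced by bacteria, had 1.50, 3.50, 1.84 and 6.46 against 0.014. Dmbt1, Retnlb and Prom1, a membrane protein of microvilli, were the 3 genes of that list at least 2-fold higher in replicate 2 of both subsets, as the 15 above were. Another 6 genes of the list were lower in replicate 2 of both subsets, among them Ang4, an antimicrobial ribonuclease, with signals of 1.09, 0.792, 1.43 and 0.398 against 0.052, and Espn, an actin-bundling protein, with 0.492, 0.281, 0.235 and 0.069 against 0.738. In all, 13 of the 22 were higher in replicate 2 of both subsets. Of all 18193 genes, 5909 were higher and 3535 lower in replicate 2 of both subsets. The median replicate difference of the list was 0.34 on the log2 scale. Of 9 measured genes of inflamed epithelium 5 rose and 0 fell, among them Saa3, an acute phase protein that macrophages also make, with nearly equal LP signals of 21.8 to 22.9 against 2.26. Of 7 crypt stem cell genes 1 rose and 1 fell, and Lgr5, which marks those cells, was under the array median on all arrays, at 0.134 to 0.810 in LP cells. Of 8 enteroendocrine and tuft cell genes 3 rose and 0 fell, and of 6 small intestinal genes 2 rose and 0 fell.

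Markers of other cells also differed between LP and naive arrays. Between the replicates their medians lay closer to 0 than that of the 38 genes, at 1.16, and so did those of the further epithelial lists. Those were 0.34 for the further colonocyte and goblet genes, 0.12 for inflamed epithelium and 0.22 for crypt stem cell genes. They were -0.08 for enteroendocrine and tuft cell genes and 0.73 for small intestinal genes. Of 15 fibroblast and smooth muscle genes 10 rose in LP cells and 1 fell, and their summed signal was 117 and 180 in CXCR6+ cells, 143 and 176 in CXCR6- cells and 22.6 in naive T cells. Dcn, decorin of the connective tissue matrix, had signals of 41.5, 86.4, 60.7 and 77.1 against 2.19. The median replicate difference of this list was 0.24 on the log2 scale and 0 of its 15 genes had an unadjusted p under 0.05. For 12 myeloid genes, of which 3 rose and 3 fell, these values were 0.32 and 0. For the 11 T cell genes, of which Cd28 rose and Cd3d and Cd3e fell, they were -0.01 and 0. Of all 18193 genes, 1162 had a limma unadjusted p under 0.05 between the replicates. A count of 0 in lists this short is near that share. Of 8 endothelial genes 1 rose and 1 fell, with a median replicate difference of -0.21.

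Of 9 B cell and plasma cell genes 1 rose and 7 fell. Jchain, which joins IgA and IgM and is made by plasma cells, went against the epithelial genes by replicate number. Its signals were 73.3, 2.21, 121 and 6.38 in LP cells and 173 in naive T cells. Both replicate 1 arrays were far above both replicate 2 arrays (log2 difference -4.65 ± 0.35, limma adjusted p = 0.705). Its part in the epithelial difference was not tested.

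**Figure D4:**
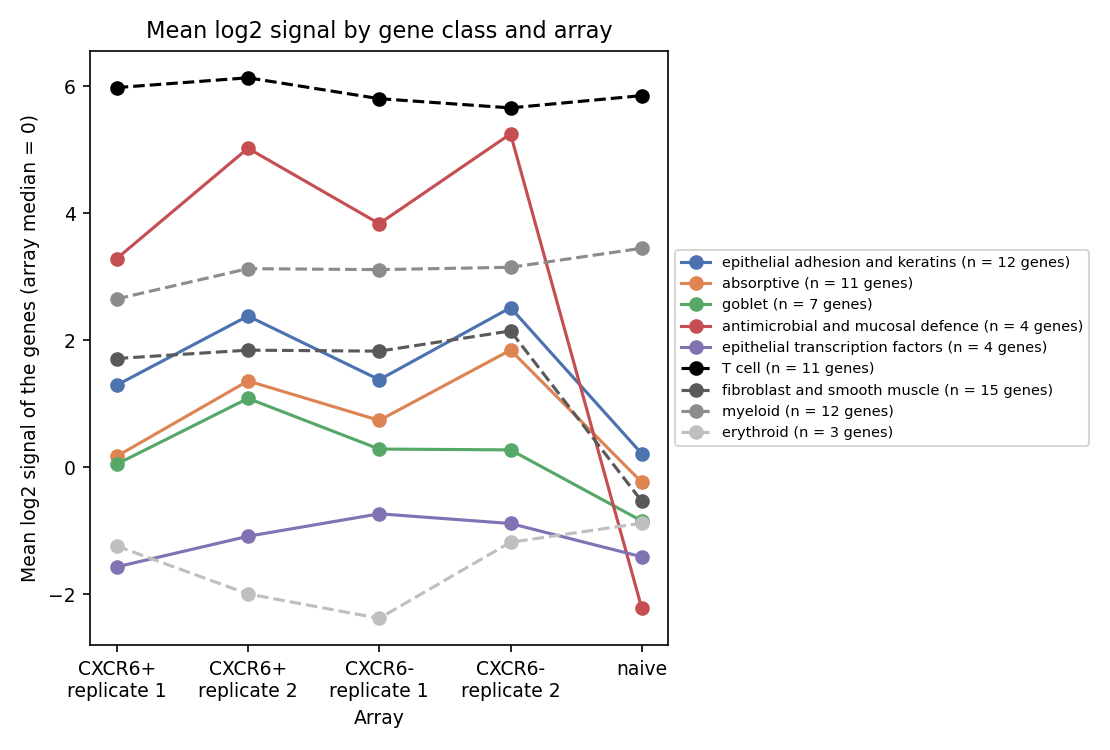
Mean log2 signal of the genes of each class on each of the 5 arrays (0 is the array median), with solid lines for the epithelial classes and dashed lines for other cell types; lines only link points of one list. The antimicrobial class stands at 3.29 and 5.02 in CXCR6+ cells and 3.84 and 5.25 in CXCR6- cells, replicate 1 first, and at -2.22 in naive T cells, while the T cell list stays between 5.66 and 6.13.

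Probe sets of the same gene mostly gave the same direction against naive T cells. The 38 genes have 69 probe sets, and 15 of the genes have more than 1. Of 16 further probe sets whose mean signal reached 1, 15 had the sign of the probe set used in LP against naive T cells, and 10 were higher in replicate 2 in both subsets. The exception in sign was Muc13, whose second probe set had signals of 0.578, 1.48, 0.757 and 1.22 against 1.95.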

How the data were processed

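RNA of CXCR6+ (n = 2), CXCR6- (n = 2) and naive (n = 1) CD4+ T cells was measured on Affymetrix GeneChip arrays of the mouse genome. The deposited intensity values are linear signals with a median of 1 on each array, which the authors made with GeneSpring (named in the methods) or RMA (named in the submitters' processing notes). The background correction is not given in the sources used here, and the RNeasy kit differs between methods and labels. Of 45101 probe sets, 34945 had 1 gene symbol, 932 several and 9211 none. 13 control probe sets were left out. By Entrez ID 34741 matched RefSeq. The brightest probe set by mean stood for each of 18193 genes.

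Signals were log2 transformed, 2 signals of 0 being set to 0.001, and dim genes were kept. The test was limma's moderated test (limma 3.58.1 under R 4.3.3), two-sided, with p-values adjusted across all 18193 genes by Benjamini-Hochberg and a threshold of 0.05. The 3 groups shared a fit with 2 residual degrees of freedom. Replicate 2 was compared with replicate 1 on the 4 LP arrays with subset as a term. The fits were tested on simulated data. The genes and lists were chosen with earlier results of these data known. Signals on every array are given for 32 genes: those that passed any comparison, the defining markers, and those at least 2-fold apart between replicates in one direction in both subsets. Of the other 6, Zg16 is also given on every array, and the rest by range or count. The alternatives were other probe set choices, a filter on dim genes, quantile normalization, other treatments of low signals, another variance model, the methods' t-test, a fold limit, a replicate block and leaving out each LP array. Figures were drawn with matplotlib 3.10.9.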

Additional observations from a re-analysis of the deposited data

Results flagged for a closer look

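Cdh1 (E-cadherin) stood apart because both CXCR6+ arrays lay above the naive array and both CXCR6- arrays below it. Its signals were 11.3 and 7.77 in CXCR6+ cells, 4.06 and 6.70 in CXCR6- cells and 7.35 in naive T cells. The log2 difference of CXCR6+ minus CXCR6- cells was 0.84, with a limma adjusted p of 0.78. Whether the 2 differences from the naive array differ was not tested apart from this contrast, and the naive array is a single one.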

How the results depend on the processing

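The number of the 38 genes that rose in LP cells against naive T cells was 17, and 10 with quantile normalization, 1 with signals under 1 set to 1, and 10 with the methods' t-test after Benjamini-Hochberg. With each LP array left out it was 0 to 5. It was 12 to 21 with the other alternatives, with which 1705 to 3545 of all genes tested rose. The number that fell was 2, and 0 with signals under 1 set to 1 and 0 with each LP array left out, otherwise 2 or 3. The median log2 difference against naive T cells was 1.95, and 0.88 with 1 added to each signal and 0.70 with signals under 1 set to 1. With quantile normalization 2806 of all genes rose and 2171 fell, against 2756 and 3414. With signals under 1 set to 1, 1068 of all genes rose and 3321 fell. With the methods' t-test after Benjamini-Hochberg, 2027 of all genes rose and 2669 fell.

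Between CXCR6+ and CXCR6- cells 0 of the 38 genes passed in every alternative run. The median there, -0.28, was -0.18 with all probe sets of a gene averaged, -0.13 without the _s_at and _x_at probe sets, -0.37 with quantile normalization, -0.19 with 1 added and -0.15 with signals under 1 set to 1. With each LP array left out it was -0.84 to 0.29. It was above 0 without CXCR6+ replicate 1, at 0.29, and without CXCR6- replicate 2, at 0.19. Between the replicates 0 of the 38 passed. With the filter at the 40th percentile of signal 11 passed (29 of the 38 kept, 114 of all genes passing). With the variance trend and robust fitting 17 passed (292 of all genes), and with 1 added to each signal 5 (17 of all genes). With the methods' t-test unadjusted 9 passed (963 of all genes). Those of the 38 that passed were all higher in replicate 2. The median there, 1.16, was 0.92 with the mean of probe sets, 0.59 with 1 added and 0.67 with signals under 1 set to 1.

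The differences from naive T cells that changed sign belonged to genes that did not pass. Muc13, at 0.05, was -0.50 with the mean of probe sets and -1.05 without the _s_at and _x_at probe sets, and -0.25 to 0.36 with each LP array left out. Cdh1, at -0.07, was 0.72 with quantile normalization and -0.25 to 0.11 with each LP array left out. The causes of these changes were not tested. With the replicate number as a fixed replicate block, 16 of the 38 genes rose and 3 fell, against 1705 and 1807 of all 18193 genes. The replicate numbers share only a number in the labels. Across all 18193 genes, which are not independent, the replicate differences of CXCR6+ and CXCR6- cells correlated with r = 0.02, and across the 38 genes with r = 0.26. A random replicate block could not be fitted, since 0 genes gave an estimate of its correlation. With an LP array left out, the replicate comparison has no residual degrees of freedom and gives values only.

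The number of arrays and dim signals set the limits. The naive group has 1 array and no spread of its own, and differences from naive signals far under 1 depend on how low signals are treated.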
